A study of Mus musculus with 16 samples.

Results

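Pkp4, Kank2, Cyb5r3 and Ddr2 are 4 mouse RNAs that the study names as APC-dependent, and their rows were followed here through all 16 samples of a table of 12900 RNAs. They were chosen by name, with earlier results of these data known, and each had a value in every sample. NIH/3T3 cells, an established line of mouse embryonic fibroblasts, carried a stable lentiviral construct from which doxycycline induced an RNA with the coding sequence of human β-globin. In the control line (HBB) it was followed by the β-globin 3′UTR, and in the other line (Pkp4 cUTR) by the 3′UTR of mouse Pkp4. All groups received 1 µg/ml doxycycline for 3 days and were serum-starved. The cells were then plated for 2 h on filters with 3 µm pores, given lysophosphatidic acid (LPA) below the filter for 1 h and fixed for 10 min in 0.3% paraformaldehyde. Protrusions (Ps), which had grown through the pores, and the cell bodies (CB) left above them gave 4 groups of 4 samples: HBB Ps, HBB CB, Pkp4 cUTR Ps and Pkp4 cUTR CB. Each construct was studied in a single selected line, so the construct and other differences between the lines cannot be told apart. The study calls the replicates independent and the labels do not say what was separate between them, so p-values measure the spread between these samples.

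Migrating fibroblasts concentrate certain mRNAs in their protrusions, and 3′UTR sequence is commonly what directs such localization. One class of these RNAs needs the adenomatous polyposis coli protein (APC), which binds both RNA and microtubules, to gather there. Expression of an exogenous Pkp4 3′UTR addresses whether it competes with endogenous RNAs of this class. The 4 proteins have unlike roles. Pkp4 is an armadillo-repeat protein of the δ-catenin and plakophilin family found at cell junctions. Kank2 binds talin at focal adhesions and connects them to cortical complexes that capture microtubules. Cyb5r3 passes electrons from NADH to cytochrome b5, which feeds fatty acid desaturation and sterol synthesis. Ddr2 is a receptor tyrosine kinase activated by fibrillar collagens.

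In the GRCm38 annotation, Pkp4 lies on the plus strand at chr2:59160850-59355208, Kank2 on the minus strand at chr9:21766784-21798744, Cyb5r3 on the minus strand at chr15:83153494-83172592 and Ddr2 on the minus strand at chr1:169972307-170110762. Annotated 3′UTRs of their longest coding transcripts were 757 bases for Pkp4, 2167 for Kank2, 1484 for Cyb5r3 and 5548 for Ddr2, against a median of 948 over 10817 RNAs of the table. Since the construct turns on a 3′UTR, these were searched on the RNA strand, overlapping matches included, for 8 purine-rich heptamers, which hold GAAG after 1 purine (A or G) and before 2 more. Pkp4 held 2 of them, Kank2 4, Cyb5r3 4 and Ddr2 8, and 58.7% of all 3′UTRs held at least 1. Of 3′UTRs within 20% of the same length, 21.3% had as many as Pkp4, 23.2% as many as Kank2, 11.0% as many as Cyb5r3 and 29.2% as many as Ddr2. By this count none of the 4 was rare for its length. The first stretch of 30 bases with the most purines in each 3′UTR is shown to let the 4 be compared by eye, with any heptamers in it in capitals.
Pkp4, chr2:59354537-59354566, plus strand: gaaagtgaaatGGAAGGGatgagtgaagag
Kank2, chr9:21768631-21768660, minus strand: gggaggaGGAAGGGggggcaAGAAGAGaaa
Cyb5r3, chr15:83158390-83158419, minus strand: ggaggagctgtgctGGAAGGAgggagtgag
Ddr2, chr1:169974938-169974967, minus strand: GGAAGGAgaggatgggtagaaaataagaaa
The windows held 26, 29, 24 and 27 purines respectively. Among 3′UTRs of like length, 8.36% had a window as purine-rich as that of Kank2, whereas 68.0% had one as rich as that of Cyb5r3. A match is a description of letters and was not tested as a binding site.

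The 12900 RNAs together took 18660287 to 31260831 reads in a sample, and the 4 RNAs had from 476 reads (Pkp4, HBB CB replicate 4) to 95655 reads (Cyb5r3, HBB Ps replicate 3) in a sample. The scaled library sizes in the deposited values lay between 0.83 and 1.11 times these totals, below 1 in all 8 Ps samples and above 1 in all 8 CB samples. Of 8 fibroblast markers, 7 were analysed and had mean levels of 7.42 to 12.53 log2 CPM (log2 of the reads on a gene per 1000000 reads of the library). Of 3 epithelial markers, Cdh1 and Krt14 were analysed, and Krt14 was not low, with a mean of 7.61. The endothelial genes Pecam1 and Cdh5 summed to at most 1.87 CPM in a sample. The 3 nuclear RNAs analysed of 4 (Malat1, Neat1 and Kcnq1ot1) summed to 476 to 723 CPM in the CB samples and to 160 to 315 CPM in the Ps samples. This difference moves with the fraction, and its part in the enrichments below was not tested.

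All 4 RNAs were higher in Ps than in CB of HBB cells. The enrichment was 8.83-fold for Cyb5r3, 4.37-fold for Kank2, 2.91-fold for Pkp4 and 1.97-fold for Ddr2. Of these, 3 pass the study's rule for a Ps-enriched RNA, a fold change above 2 with an unadjusted limma p under 0.05, which 4.54% of all RNAs passed. Ddr2 stayed just under the fold limit. At an adjusted p under 0.05 all 4 were called higher, as were 28.3% of all RNAs, so the call by itself sets an RNA little apart. The median enrichment of the 4 on the log2 scale was 1.83, against 0.01 over all RNAs. The study drew its APC-dependent RNAs from RNAs that were Ps-enriched in other samples, so the choice of the 4 favours a high median. Within the Pkp4 cUTR line, Cyb5r3, Kank2 and Ddr2 passed both rules, which 5.07% (fold above 2) and 28.2% (adjusted p) of all RNAs did, and Pkp4 passed neither.

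Cyb5r3 had log2 CPM of 8.88, 8.80, 8.67 and 8.69 in HBB CB and of 11.93, 11.54, 12.34 and 11.79 in HBB Ps (replicates 1 to 4). Its values in Pkp4 cUTR cells were 8.86, 8.81, 8.60 and 8.56 in CB and 11.99, 11.65, 11.78 and 11.44 in Ps. The lowest Ps sample lay far above the highest CB sample in both lines. The log2 fold change was 3.14 (SE 0.13, 95% interval 2.86 to 3.42, limma adjusted p = 4.2e-11) in HBB cells and 3.01 (SE 0.13, adjusted p = 7.96e-11) in Pkp4 cUTR cells. In HBB cells this was the highest value among all 12900 RNAs. The second highest was its place in Pkp4 cUTR cells, after the predicted RNA RP23-416H10.8, whose mean was only -2.94 log2 CPM and whose value of 3.81 had an SE of 0.73 (named after its values were seen).

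Kank2 had log2 CPM of 6.73, 6.70, 6.75 and 6.58 in HBB CB and of 8.76, 8.56, 9.17 and 8.78 in HBB Ps. Those of Pkp4 cUTR cells were 6.51, 6.59, 6.64 and 6.20 in CB and 8.62, 8.11, 8.13 and 8.32 in Ps. Again no Ps sample reached down to a CB sample. The enrichment was 2.13 on the log2 scale (SE 0.13, 95% interval 1.86 to 2.39, limma adjusted p = 1.43e-09) in HBB cells and 1.81 (SE 0.13, 95% interval 1.54 to 2.07, adjusted p = 1.04e-08) in Pkp4 cUTR cells. Kank2 stood at rank 22 of 12900 in the first and at rank 52 in the second.

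Pkp4 had log2 CPM of 4.46, 4.53, 4.45 and 4.43 in HBB CB and of 5.87, 5.76, 6.35 and 6.05 in HBB Ps. It was the scarcest of the 4 RNAs in the control line, and its Ps and CB samples did not overlap. Its enrichment of 1.54 on the log2 scale (SE 0.20, 95% interval 1.12 to 1.96, limma adjusted p = 4.63e-06) put it at rank 95 of 12900. The Pkp4 row rose in Pkp4 cUTR cells to 8.82, 9.24, 9.32 and 8.26 in CB and to 9.80, 9.14, 8.96 and 9.43 in Ps. There the fractions overlapped, since Ps replicates 2 and 3 were lower than CB replicates 2 and 3. The difference of Ps over CB was 0.42 (SE 0.20, 95% interval 0.01 to 0.84, limma adjusted p = 0.0735) and missed the adjusted threshold. It passed when Pkp4 cUTR CB replicate 2 (0.54, limma adjusted p = 0.0373), CB replicate 3 (0.56, 0.0275) or Ps replicate 3 (0.55, 0.0311) was left out, and shrank to 0.20 without CB replicate 4 and to 0.27 without Ps replicate 1.

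Ddr2 had log2 CPM of 6.47, 6.45, 6.23 and 6.06 in HBB CB and of 7.25, 7.25, 7.45 and 7.16 in HBB Ps. The Pkp4 cUTR line gave 6.48, 6.54, 6.32 and 6.16 in CB and 7.50, 7.47, 7.38 and 7.22 in Ps. Its fractions did not overlap in either line, although its change was the smallest of the 4 in HBB cells. The log2 fold change was 0.98 (SE 0.10, 95% interval 0.76 to 1.19, limma adjusted p = 3.59e-07) in HBB cells and 1.02 (SE 0.10, 95% interval 0.81 to 1.23, adjusted p = 3.12e-07) in Pkp4 cUTR cells. These values lie just under and just over 2-fold, and each interval holds the limit. In HBB cells, 25.5% of all RNAs were higher in all 4 Ps samples than in any CB sample, and in Pkp4 cUTR cells 22.6% were.

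**Figure D1:**
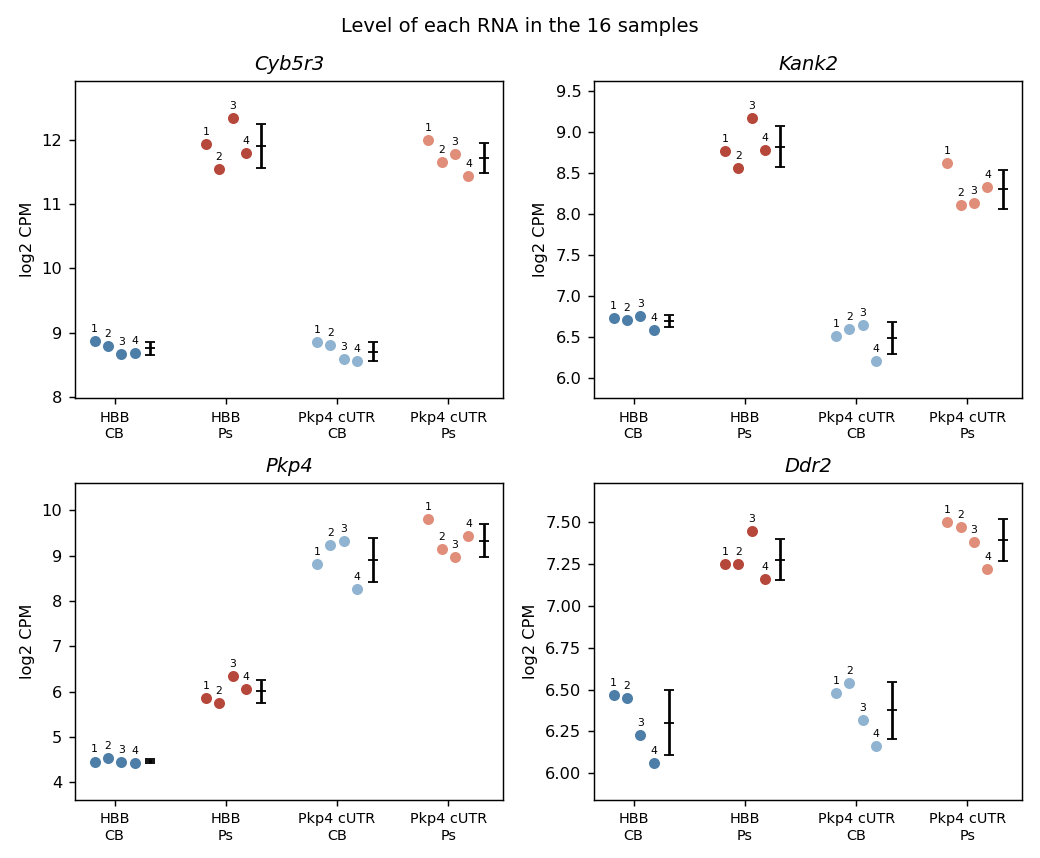
Log2 CPM (y axis) of Cyb5r3, Kank2, Pkp4 and Ddr2 in each of the 16 samples, by line and fraction (x axis), with points labelled by replicate number and black bars for the mean ± SD of 4 samples. Ps points lie above all CB points in both lines for Cyb5r3, Kank2 and Ddr2, while Pkp4 rises in both fractions of the Pkp4 cUTR line and its fractions overlap there.

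Replicate 3 of HBB Ps was the highest sample of its group for each of the 4 RNAs. Without it, the enrichment in HBB cells stayed past the adjusted threshold for all 4. An exact two-sided permutation test of each RNA over samples gave p = 0.0286, the smallest that 4 against 4 samples allow, for all 4 RNAs in HBB cells and for Cyb5r3, Kank2 and Ddr2 in Pkp4 cUTR cells. For Pkp4 in Pkp4 cUTR cells the exact p was 0.229.

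The enrichments differed from each other. In HBB cells that of Cyb5r3 exceeded that of Kank2 by 1.01 on the log2 scale (SE 0.07), that of Kank2 exceeded that of Pkp4 by 0.59 (SE 0.05) and that of Pkp4 exceeded that of Ddr2 by 0.57 (SE 0.13). Each of the 6 pairs had an exact permutation p of 0.0286 over the 8 HBB samples, which stayed at 0.0286 after adjustment over the pairs. In Pkp4 cUTR cells 5 of the 6 pairs differed (adjusted exact p = 0.0343), the exception being Pkp4 and Ddr2, where the row of Pkp4 was lower by 0.60 (SE 0.27, adjusted exact p = 0.114).

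Levels can be compared between genes only per length. Per kilobase of annotated exon, HBB Ps held 909 CPM of Cyb5r3 (SD 219, n = 4), 87.3 of Kank2 (SD 16.2), 16.8 of Ddr2 (SD 1.48) and 11.4 of Pkp4 (SD 2.13). The ranges of the 4 samples did not overlap between any neighbours in this order, with the highest Pkp4 sample at 14.3 and the lowest Ddr2 sample at 15.4. HBB CB gave the same order, with 101 (SD 6.71), 19.8 (SD 1.03), 8.57 (SD 1.13) and 3.87 CPM per kilobase (SD 0.11), and again no neighbours overlapped. In Pkp4 cUTR CB the row of Pkp4 came to 87.8 (SD 26.9) and ranged from 53.6 to 112, which overlapped Cyb5r3 at 88.1 to 108. In Pkp4 cUTR Ps it stood between Cyb5r3 at 789 (SD 125) and Kank2 at 60.6 (SD 10.3), with 116 (SD 30.5). For that line the exon length is not the length the reads came from if they derive from the construct's 3′UTR alone. Cyb5r3 shares 243 exonic bases with the antisense RNA Gm49463 and Ddr2 shares 90 with 3110045C21Rik, and the sources used here do not say whether the counting used strand, without which reads of the pairs cannot be told apart.

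**Figure D2:**
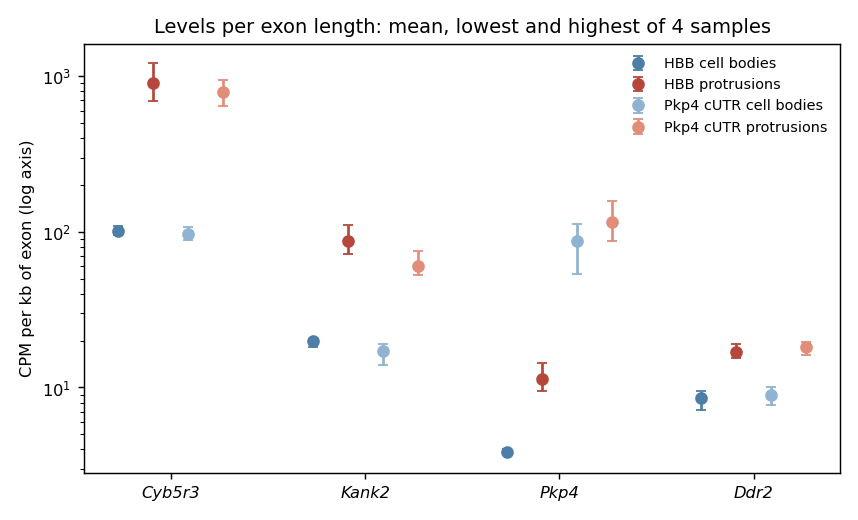
CPM per kilobase of annotated exon (y axis, log scale) of the 4 RNAs (x axis), as the mean with the lowest and the highest of 4 samples for each line and fraction. Cyb5r3 is highest in every group except that Pkp4 overlaps it in Pkp4 cUTR CB.

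The Pkp4 row rose in both fractions of the line that expresses the Pkp4 3′UTR. In CB its mean was 22.1 CPM (SD 0.65, n = 4) in HBB cells and 501 CPM (SD 154, n = 4) in Pkp4 cUTR cells. In Ps the means were 65.2 CPM (SD 12.1) and 662 CPM (SD 174). The fitted difference was 21.7-fold in CB (log2 4.44, SE 0.20, limma adjusted p = 7.41e-11) and 10.0-fold in Ps (log2 3.32, SE 0.20, adjusted p = 5.84e-09). The groups did not overlap in either fraction, which held for 6.49% and 6.31% of all RNAs in this direction. At an adjusted p under 0.05, 3.42% of RNAs were higher in CB and 2.89% in Ps of the Pkp4 cUTR line. The second of these shares is 373 RNAs, which became 576 with a replicate block shared by the lines. In each fraction Pkp4 had the second highest fold change of the 12900 RNAs, after Adipoq, an adipocyte hormone gene with a mean of -2.79 log2 CPM (named after its values were seen).

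The construct carries the 757-base 3′UTR that makes up 16.4% of the 4614-base Pkp4 transcript, so reads from it can be counted on Pkp4, and reads of the endogenous RNA and of the construct cannot be told apart in these values. The mean excess over the HBB samples of the same fraction was 479 CPM (SD 154) in CB, or 95.6% of the row, and 597 CPM (SD 174) in Ps, or 90.2%. Ps over CB of this excess was 0.34 on the log2 scale (SE 0.33, exact permutation p = 0.343), a calculation chosen after seeing the data. Within the Pkp4 cUTR line the row varied more between replicates (SD 0.49 log2 CPM in CB and 0.37 in Ps) than in HBB cells (SD 0.04 and 0.26). The highest CB sample was replicate 3 and the lowest replicate 4, whereas the highest Ps sample was replicate 1 and the lowest replicate 3. The human β-globin part of the construct was not analysed here.

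For the 3 other RNAs the lines differed little, except for Kank2 in Ps. Kank2 was 1.44-fold lower in Ps of the Pkp4 cUTR line (log2 -0.53, SE 0.13, 95% interval -0.79 to -0.26, limma adjusted p = 0.0153), and 4.26% of all RNAs were called lower there. Its values in the lines overlapped, since Pkp4 cUTR replicate 1 (8.62) lay above HBB replicate 2 (8.56), and the exact permutation p was 0.0571, while 7.40% of all RNAs were lower in all 4 samples than in any HBB sample. The overlap and the exact test do not use the replicate number, and Kank2 was lower in the Pkp4 cUTR sample of each number. The adjusted call was lost without HBB Ps replicate 3 (-0.41, limma adjusted p = 0.0581), Pkp4 cUTR Ps replicate 2 (-0.47, 0.0611) or Pkp4 cUTR Ps replicate 3 (-0.47, 0.0503). In CB the difference of Kank2 was -0.20 (SE 0.13, 95% interval -0.47 to 0.06, limma adjusted p = 0.355).

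Cyb5r3 differed by -0.06 between the lines in CB (SE 0.13, 95% interval -0.32 to 0.21, limma adjusted p = 0.846) and by -0.19 in Ps (SE 0.14, 95% interval -0.49 to 0.10, adjusted p = 0.459). Ddr2 differed by 0.07 in CB (SE 0.10, 95% interval -0.14 to 0.28, limma adjusted p = 0.738) and by 0.11 in Ps (SE 0.10, 95% interval -0.10 to 0.33, adjusted p = 0.553). Other genes moved with the line as well. The summed level of Cdh1 and Krt14 was 147 to 183 CPM in the HBB samples and 215 to 275 CPM in the Pkp4 cUTR samples, and the part of such line differences in these comparisons was not tested.

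**Figure D3:**
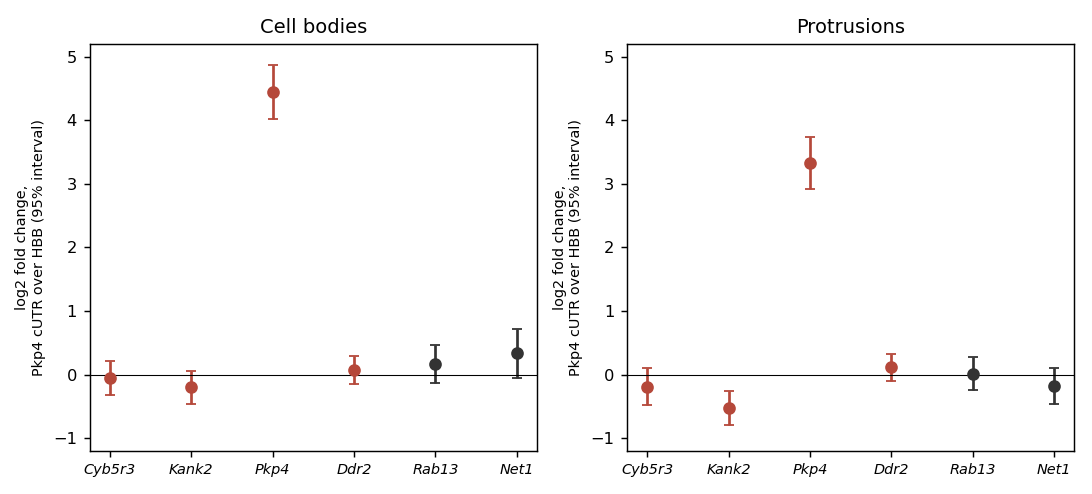
Log2 fold change of Pkp4 cUTR over HBB samples (y axis, points with 95% limma intervals) in CB and in Ps for the 4 RNAs and for Rab13 and Net1, other APC-dependent RNAs (x axis). Pkp4 stands at 4.44 in CB and 3.32 in Ps, and of the remaining RNAs Kank2 in Ps has an interval that excludes 0.

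In these fractions, whether the Pkp4 cUTR changed localization is addressed by log2(Diff FC), the log2 enrichment in Pkp4 cUTR cells minus that in HBB cells. By in situ hybridization, the study reported significantly less peripheral Ddr2 and Kank2 RNA in cells with the Pkp4 3′UTR than in control cells. That imaging of single cells is another measure than the RNA of isolated fractions, and it was not analysed here. Among RNAs that are Ps-enriched in HBB cells, the study called one less enriched when this value was below 0 with an unadjusted p under 0.1. Over the whole table that p threshold was passed by 5.80% of all RNAs, and with a negative value by 2.36%. No RNA of the 12900 passed an adjusted p under 0.05 in limma, and 300 (2.33%) had an unadjusted p under 0.05. These shares are below what such thresholds would pass if no RNA differed, so a p under 0.1 here sets an RNA little apart. Among the 4 RNAs, the negative values of Pkp4 and Kank2 had a p under 0.1 and the values of Cyb5r3 and Ddr2 did not.

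Pkp4 had a log2(Diff FC) of -1.12 (SE 0.28, 95% interval -1.71 to -0.53, limma p = 0.000875, adjusted p = 1, exact permutation p = 0.622), the 41st lowest of 12900. In the Pkp4 cUTR line the row holds mostly reads in excess of the level in the control line, and the value does not measure the endogenous Pkp4 RNA alone. The exact test says nothing about this value, because it relabels the lines within each fraction and so mixes samples whose Pkp4 levels lie 3.32 to 4.44 log2 units apart.

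Kank2 had a log2(Diff FC) of -0.32 (SE 0.18, 95% interval -0.70 to 0.05, limma p = 0.0854, adjusted p = 1, exact permutation p = 0.288). The exact test relabels the lines within each fraction, so the difference of Kank2 between the lines in Ps enters it. That test cannot decide on this value. Without HBB Ps replicate 3 the log2(Diff FC) was -0.20, and it missed the threshold in 8 of 16 fits that left out a sample.

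Cyb5r3 had a log2(Diff FC) of -0.14 (SE 0.19, 95% interval -0.53 to 0.26, limma p = 0.482, adjusted p = 1, exact permutation p = 0.585), and without HBB Ps replicate 3 it was 0.01. Ddr2 had a log2(Diff FC) of 0.04 (SE 0.14, 95% interval -0.26 to 0.35, limma p = 0.762, adjusted p = 1, exact permutation p = 0.787). The intervals leave room for a decrease of 0.53 for Cyb5r3 and of 0.26 for Ddr2.

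Of 91 names on the study's list of APC-dependent RNAs, made from samples not analysed here, 88 were measured and all 4 RNAs are among them. The list holds only RNAs that were Ps-enriched in the control cells of those samples. The median enrichment of these 88 was 1.08 on the log2 scale in HBB cells and 0.90 in Pkp4 cUTR cells. In HBB cells Cyb5r3 ranked first of the 88, Kank2 at 7, Pkp4 at 21 and Ddr2 at 53. The median log2(Diff FC) of the list was -0.19, against 0.005 over all RNAs. Among the 88, in order from the highest log2(Diff FC), Ddr2 stood at 15, Cyb5r3 at 37, Kank2 at 64 and Pkp4 at 86. Rab13 and Net1, APC-dependent RNAs for a small GTPase and a guanine nucleotide exchange factor, had log2 enrichments of 2.36 (SE 0.14) and 2.31 (SE 0.16) in HBB cells, between those of Cyb5r3 and Kank2. Rhoa and Arpc3, used by the study as diffuse RNAs, had 0.32 (SE 0.06) and 0.50 (SE 0.08).

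**Figure D4:**
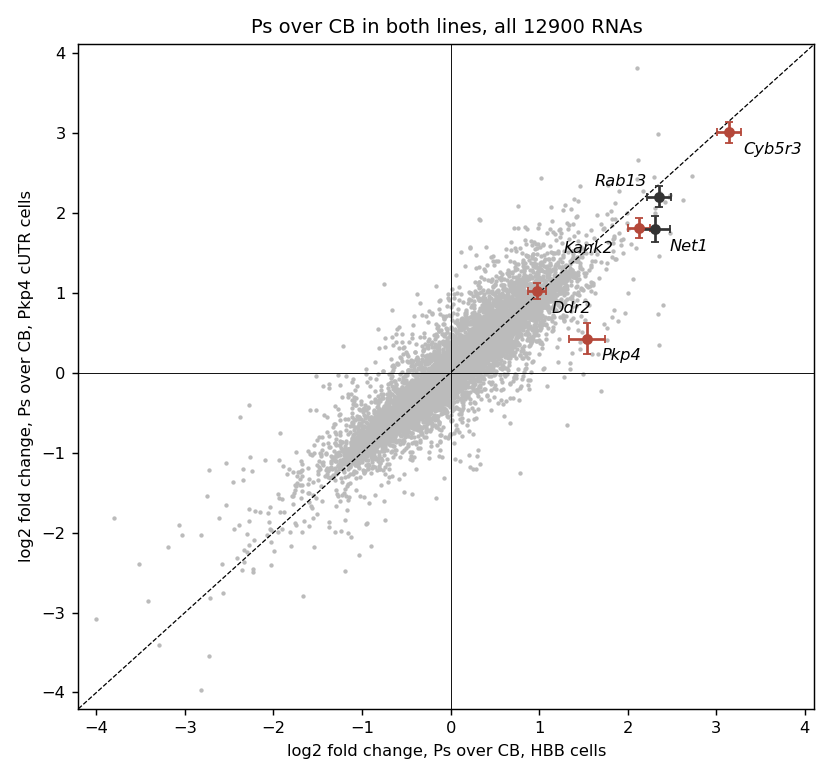
Log2 fold change of Ps over CB in HBB cells (x axis) and in Pkp4 cUTR cells (y axis) for all 12900 RNAs (grey), with SE bars for the 4 RNAs (red) and for Rab13 and Net1 (black), and the dashed line where both are equal. Cyb5r3 lies at the upper end in both lines, Ddr2 on the dashed line, and Pkp4 below it at 1.54 and 0.42.

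Close relatives were not enriched in Ps to the same degree. In HBB cells the log2 enrichment of each of the 4 RNAs exceeded that of every measured relative, with an exact permutation p of 0.0286 for each of 11 pairs, unchanged by adjustment over them. In Pkp4 cUTR cells 7 of 11 pairs passed (adjusted exact p = 0.0449), and the other 4 were Pkp4 with Pkp1, Pkp2, Pkp3 and Ctnnd1. The 4 RNAs come from a list drawn from Ps-enriched RNAs, with these data known, and the relatives were chosen by family. That the 4 exceed their relatives was thus largely set by the choice, and these p-values add no support to it.

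Within the Pkp4 family, the desmosomal plakophilins Pkp1, Pkp2 and Pkp3 had log2 enrichments in HBB cells of -0.04 (SE 0.17), 0.21 (SE 0.12) and -0.04 (SE 0.24), none of which passed the adjusted threshold in limma. Ctnnd1, which encodes p120-catenin, a stabilizer of cadherins, rose by 0.28 (SE 0.08, limma adjusted p = 0.00853), although 4482 of its exonic bases are shared with Gm28635 and its count is uncertain. Arvcf, another catenin of this family, was lower in Ps (-0.43, SE 0.11, limma adjusted p = 0.0032). Between the lines, Pkp1, Pkp3, Ctnnd1 and Arvcf did not pass the adjusted threshold in either fraction, and Pkp2 lay at it in Ps (-0.46, SE 0.14, limma adjusted p = 0.05). Whether they differed from Pkp4 in this was not tested.

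Of the relatives of Kank2, Kank1 and Kank3 fell in Ps. Kank1 had -0.50 (SE 0.11, limma adjusted p = 0.000892) and Kank3 -0.45 (SE 0.11, adjusted p = 0.00153) in HBB cells, so Kank2 exceeded them by 2.62 (SE 0.13) and 2.57 (SE 0.14). Kank3 shares 88 exonic bases with Rps28 and Ddr1 216 with Gm4577, each on the opposite strand. Among the reductases related to Cyb5r3, Cyb5r4, which contains a cytochrome b5 domain of its own, rose 1.91-fold in Ps of HBB cells (log2 0.93, SE 0.11, limma adjusted p = 8.35e-07) and 1.57-fold in Pkp4 cUTR cells (adjusted p = 4.73e-05). Cyb5r1 and Cyb5rl had -0.01 (SE 0.06) and -0.01 (SE 0.10) in HBB cells and did not pass. Ddr1, the other collagen receptor kinase, was lower in Ps, with -0.91 (SE 0.10, limma adjusted p = 7.24e-07) in HBB cells and -0.89 (adjusted p = 1.25e-06) in Pkp4 cUTR cells. Ddr2 exceeded it by 1.89 (SE 0.14) and 1.91 (SE 0.14).

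**Figure D5:**
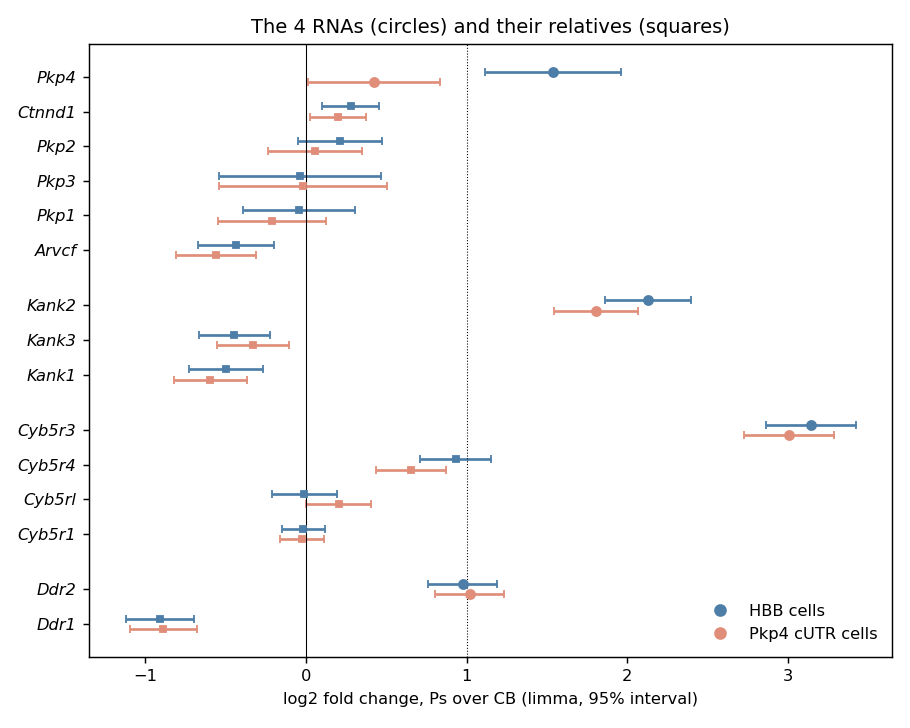
Log2 fold change of Ps over CB (x axis, points with 95% limma intervals) in HBB cells (blue) and Pkp4 cUTR cells (salmon) for the 4 RNAs (circles) and their measured relatives (squares), with a dotted line at 2-fold. In HBB cells the 4 circles lie to the right of the squares of their own families.

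Genes that work with the 4 proteins were read from lists of partners. Of the partners of Kank2 in adhesions and cortical complexes, 12 of 13 were measured, and in HBB cells 6 rose and 3 fell in Ps at an adjusted p under 0.05 in limma, with a median log2 change of 0.32. Over all RNAs, 28.3% rose and 28.9% fell in these samples. Ppfia1 (liprin-α1) was the highest, with 1.30 (SE 0.14), and Tln1 (talin), to which Kank2 binds, the lowest, with -0.61 (SE 0.12). Phldb2 (LL5β), which recruits the cortical complex to membranes, had 0.99 (SE 0.14) and the kinesin Kif21a 0.42 (SE 0.13). Phldb1 and Tln2 went the other way, with -0.36 (SE 0.09) and -0.32 (SE 0.11). Erc1 with 0.02 (SE 0.11) and Clasp2 with -0.09 (SE 0.15) did not pass. For the Pkp4 cUTR line these counts were 4 and 2, where 28.2% of all RNAs rose and 28.5% fell.

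The partners of Cyb5r3 were the cytochromes b5 and enzymes that draw on them. All 11 were measured, and in HBB cells 3 rose and 3 fell, with a median of -0.08, and these counts are near the shares over all RNAs (28.3% and 28.9%). The stearoyl-CoA desaturase Scd1 rose 2.99-fold in Ps (log2 1.58, SE 0.13, limma adjusted p = 2.54e-08), and its paralog Scd2 fell by 0.76 on the log2 scale (SE 0.12, adjusted p = 2.22e-05), the highest and the lowest of the list. The cytochromes Cyb5a and Cyb5b rose by 0.51 (SE 0.07) and 0.28 (SE 0.07). Fads3 and Sc5d fell, with -0.47 (SE 0.06) and -0.30 (SE 0.10). Cyb5d1 with 0.10 (SE 0.17) and Cyb5d2 with -0.175 (SE 0.10) did not pass. Reads of Scd1 and Scd2 may be shared in part, since the genes are similar. Scd1 is also on the study's APC-dependent list.

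Of the collagens, integrins and signalling partners of Ddr2, 13 of 16 were measured, and in HBB cells 1 rose and 9 fell in Ps, with a median of -0.51. The collagens that Ddr2 binds were on the CB side, with -1.26 (SE 0.13) for Col1a1, -1.33 (SE 0.11) for Col1a2 and -1.39 (SE 0.13) for Col3a1, the lowest of the list. Ptpn11 (SHP2), a phosphatase that acts downstream of Ddr2, was the RNA that rose, by 0.76 (SE 0.12, limma adjusted p = 2.24e-05). The Pkp4 cUTR line had 1 that rose and 10 that fell. Between the lines, 6 of the 13 were lower in CB and 4 in Ps of the Pkp4 cUTR line, where Ddr2 itself did not pass. Over all RNAs, 28.3% were called higher and 28.9% lower in Ps of HBB cells, 28.2% and 28.5% in Pkp4 cUTR cells, and 5.55% lower in CB and 4.26% lower in Ps of the Pkp4 cUTR line.

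Of the partners of Pkp4 at junctions and in cytokinesis, 7 of 9 were measured, with 2 that rose and 2 that fell in Ps of HBB cells and a median of 0.08, again near the shares over all RNAs (28.3% and 28.9%). Erbb2ip (erbin), which binds Pkp4, was the highest with 1.06 (SE 0.15, limma adjusted p = 1.34e-05), and Cdh2 (N-cadherin) the lowest with -1.08 (SE 0.15, adjusted p = 9.9e-06). The exchange factor Ect2, which acts in cytokinesis, had 0.08 (SE 0.31) at a mean of -0.09 log2 CPM. In Pkp4 cUTR cells the counts were the same, 2 and 2, and no partner passed the adjusted threshold between the lines in either fraction. Across these 4 lists no RNA passed the adjusted threshold for log2(Diff FC), as none did in the whole table.

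RNAs with the most similar pattern over the 16 samples were sought among 10154 RNAs of a mean log2 CPM above 1. For Kank2 they were Kctd10 (Pearson r 0.998), Dynll2 (0.994) and Kif1c (0.991), which were enriched in Ps of HBB cells by 1.77, 1.93 and 2.00 on the log2 scale. For Cyb5r3 they were 5730409E04Rik (0.998), Cenpb (0.997) and Cplx2 (0.997), and for Ddr2 they were Eef1a1 (0.984), Nrd1 (0.982) and Samd4 (0.98). Kank2, Cyb5r3 and Ddr2 had r of 0.933 to 0.981 with each other, and all of them separate Ps from CB samples of the same libraries. Pkp4 went apart, with r of 0.095 to Kank2, 0.212 to Cyb5r3 and 0.328 to Ddr2. Its nearest RNAs, Serpina3h (0.966), Rftn1 (0.943) and Exoc3l2 (0.941), had log2 enrichments in HBB cells of at most 0.27, so its pattern over the samples followed the line more than the fraction. These values describe 16 samples in 4 groups and carry no test.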

How the data were processed

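The data were RNA-Seq of 16 samples, grouped by the line, fraction and replicate number in their labels. The authors aligned stranded reads to mm10 (STAR 2.4.2a, 2-pass mode), counted them per gene (Rsubread, GENCODE annotation), normalized them with limma-voom (3.26.1) and deposited log2 CPM values for 12900 RNAs. The deposited values gave back the reads behind them (100% within 0.01 of a whole read). The study states a cutoff of 0.5 log2 CPM in at least 1 sample, and 11482 of the RNAs pass it, so the table holds RNAs under it. The table has 5 empty columns. The recovered reads and the authors' scaled library sizes were fitted with limma-voom (limma 3.58.1, R 4.3.3) as 1 mean per group over all RNAs, with no further filter, Benjamini-Hochberg adjustment and an adjusted p under 0.05, or the study's unadjusted limits where named. A count test (edgeR or the like) was not run on the recovered reads, and the study's own method, limma-voom, was kept. Single RNAs were tested by two-sided exact permutation (scipy 1.17.1). Counting error bears little on RNAs with 476 reads or more, and 3 reads corresponded to 0.089 to 0.176 CPM. Exon lengths, positions and 3′UTRs came from GENCODE vM21 (GRCm38), in which 12299 RNAs (95.3%) matched by symbol, and like-length 3′UTRs were those within 20%.

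The 4 RNAs were always named, as were their relatives, Rab13, Net1, Arpc3 and Rhoa, the highest and the lowest partner in HBB cells, and the 3 RNAs of most similar pattern. Other partners given with values were named outside this rule. The members and lists were chosen with earlier results of these data known. The fit was checked on simulated reads with the same fixed spread for every RNA and no replicate effect. That check does not cover p-values at the spread of these samples. Samples of the same number in both lines moved together (mean correlation over 10154 RNAs of 0.483 between CB, lowest 0.331, and 0.316 between Ps, lowest 0.196), so a replicate block shared by the lines was an alternative. Ps and CB of HBB cells went together only weakly by number (mean 0.178, lowest 0.046, against -0.062 for unlike numbers). Those of Pkp4 cUTR cells did not pair by number (mean -0.161, against 0.061 for unlike numbers). Other alternatives were no weights, other scalings, log2(CPM + 1), a filter, the groups of 1 contrast alone, and leaving out each sample.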

Additional observations from a re-analysis of the deposited data

Results flagged for a closer look

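The enrichment of Pkp4 in Ps differed between the lines by a log2(Diff FC) of -1.115 (limma p = 0.000875, adjusted p = 1, exact permutation p = 0.622, a test that the unlike levels of the lines make void), from 1.54 in HBB cells to 0.42 in Pkp4 cUTR cells. Reads of the construct and of the endogenous RNA cannot be told apart in that row. That of Kank2 differed by -0.323 (limma p = 0.0854, adjusted p = 1, exact permutation p = 0.288), from 2.13 to 1.81. The exact test cannot decide on this value of Kank2, since the level of Kank2 also differed between the lines in Ps. Both enrichments were picked out by the difference between the lines, at an unadjusted p under 0.1 that 5.80% of all RNAs passed. That share is below what the threshold would pass if no RNA differed. In the 16 groups of 4 samples, 4 for each RNA, no sample of the 4 RNAs stood apart by Dixon's criterion.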

How the results depend on the processing

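Of 549 values recomputed for the 20 results of the 4 RNAs, 526 kept their direction and their side of the threshold. Fits that left out a sample outside the groups compared could hardly move a value, so part of this count was fixed in advance. The enrichments of Cyb5r3, Kank2 and Ddr2 in both lines and of Pkp4 in HBB cells were past the adjusted threshold under every alternative run, with at least 2.53 for Cyb5r3, 1.54 to 2.22 for Kank2, 0.74 to 1.08 for Ddr2 and 1.30 to 1.62 for Pkp4. Leaving out 1 sample gave 0.20 to 0.56 for Pkp4 in Pkp4 cUTR cells, -0.43 to -0.20 for the log2(Diff FC) of Kank2, -0.26 to 0.01 for that of Cyb5r3, -0.03 to 0.12 for that of Ddr2, -1.34 to -0.98 for that of Pkp4, -0.63 to -0.41 for Kank2 between the lines in Ps and -0.01 to 0.14 for Ddr2 between the lines in CB. Reversals were 0.014 for the log2(Diff FC) of Cyb5r3 without HBB Ps replicate 3, -0.012, -0.005 and -0.027 for that of Ddr2 without HBB CB replicate 1, HBB CB replicate 2 or Pkp4 cUTR CB replicate 4, and -0.009 for Ddr2 between the lines in CB without HBB CB replicate 4. Quantile normalization brought the log2(Diff FC) of Cyb5r3 to -0.280, with an unadjusted p under 0.1. In exact permutation tests Kank2 did not pass for log2(Diff FC) (-0.320, p = 0.288) or between the lines in Ps (-0.524, p = 0.0571). The test of log2(Diff FC) relabels the lines within each fraction, so the difference of Kank2 between the lines widens it. It cannot decide on that value. For the difference in Ps the cause was not tested. For the log2(Diff FC) of Pkp4 the exact test (-1.118, p = 0.622) is void, since it mixes the unlike Pkp4 levels of the lines.

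With a replicate block shared by the lines, the log2(Diff FC) was -1.119 for Pkp4 and -0.322 for Kank2, and with each line's own block -1.116 and -0.321. The blocks changed no call of the 4 RNAs.

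Scaling to totals moved the median of all RNAs to -0.232 in HBB and -0.254 in Pkp4 cUTR cells, and Pkp4 in Pkp4 cUTR cells to 0.160. It turned 3655 RNAs called higher and 3734 lower in HBB cells into 1940 and 5614, and 3633 and 3679 in Pkp4 cUTR cells into 1797 and 5867. RNAs above 2-fold numbered 586 in HBB cells, 242 with totals and 264 with log2(CPM + 1), and 654 in Pkp4 cUTR cells, 245, 270, 435 with the filter on mean log2 CPM and 990 without the replicate 4 CB samples. Between the lines, RNAs called higher in CB numbered 441, and between 238 and 266 with only the 2 groups or without some CB samples, and lower from 716 to 453, and in Ps from 373 to 203 with totals, 185 to 224 without some samples and 576 with the shared replicate block, and lower from 550 to 360. For log2(Diff FC), RNAs with p under 0.05 went from 300 to 473 without Pkp4 cUTR Ps replicate 1. The longest annotated 3′UTR of Pkp4 was 760 bases, with the same 2 heptamers. Depth did not limit the 4 RNAs, since the lowest had 476 reads.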

Other observations

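Other RNAs also differed between the lines in both fractions. Adipoq, which encodes the adipocyte hormone adiponectin, was higher in the Pkp4 cUTR line by 5.37 on the log2 scale in CB (SE 0.46, limma adjusted p = 5.39e-07) and by 5.05 in Ps (SE 0.45, adjusted p = 1.62e-06), at a mean of -2.79 log2 CPM. Serpinb8, a serine protease inhibitor gene, was higher by 2.52 in CB (SE 0.23, limma adjusted p = 1.03e-06) and by 2.44 in Ps (SE 0.23, adjusted p = 2.83e-06). Both were named after their values were seen.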
